A study of Homo sapiens with 2 samples.

Results

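The 10 genes described here encode integrin subunits of epithelial cells: ITGA2, ITGA3, ITGA5, ITGA6, ITGAV, ITGB1, ITGB4, ITGB5, ITGB6 and ITGB8. They were chosen by symbol, as the entries of the deposited gene table with these names, and all 10 were found among its 29972 human genes. The table compares polyadenylated RNA of 2 tumours grown from NCI-N87 cells under the skin of nude mice. NCI-N87 is an established line from a human stomach carcinoma in which the HER2 gene ERBB2 is amplified. The untreated group is 1 tumour that received no treatment, and the refractory group is 1 tumour labelled refractory to T-DM1 (trastuzumab emtansine, a HER2 antibody that carries a microtubule poison), which was given every 3 weeks for 18 weeks. Both groups share the line and the host. The labels do not give the ages of the tumours at collection, the ages of the mice, or whether RNA of several animals was pooled. There was 1 library for each tumour and no replicate, so no comparison between samples could be tested and each difference below describes these 2 libraries only.

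Integrins are receptors made of 1 α and 1 β subunit that hold epithelial cells to the matrix beneath them. β1 pairs with many α chains: α2β1 binds collagen, α3β1 and α6β1 bind laminin, and α5β1 binds fibronectin. β4 pairs with α6 alone and anchors the hemidesmosome, where laminin outside the cell is tied to keratin inside it. Among the partners of αv are β1, β5, β6 and β8, and αvβ6 and αvβ8 release TGF-β from its latent complex. In a resting gut epithelium αvβ6 is low, and it is known for its rise in injury and in many carcinomas.

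At a 2-fold threshold, 2 of the 10 genes were lower in the refractory tumour, ITGB6 and ITGB8, and 0 were higher. Both encode β partners of αv, while ITGAV itself stood 1.48-fold higher. The other 8 genes lay between 0.904 and 1.55 times their untreated level, with 6 above and 2 below 1. All 10 passed the minimum of 1 CPM in the higher library. CPM is the read count relative to the library size, scaled by the trimmed mean of M-values, and genes were called on log2(CPM + 1). Among all 14167 genes that passed the minimum, 20.8% were called, 9.8% as higher and 11% as lower. The share of the integrin genes, 20%, was near that background, so the count alone sets them apart in neither direction. Their median log2 difference was 0.12 against 0.03 over all described genes, and their median absolute log2 difference was 0.29 against 0.43. At 1.5-fold, ITGB6 and ITGB8 were lower and 1 gene, ITGB4, was higher, where 38.3% of all described genes were called, 19.4% as higher and 18.9% as lower. At 4-fold 0 of the 10 were called, with ITGB6 just short of it, against 6.1% of all described genes, 2.54% higher and 3.56% lower.

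The libraries held 75722117 and 59902704 expected counts, and the integrin genes between 1555 and 103133 counts each, so counting error was small. The label of a carcinoma was checked on 10 epithelial markers. All 10 were described in both tumours, with a median log2 difference of -0.04, and only the keratin KRT7 (153 and 311 CPM) passed 2-fold, a call lost with total-count scaling, with 5 CPM added and in FPKM. In bulk tumour RNA, fewer cells of a type and less RNA per cell cannot be told apart. Markers of other human cell types had low summed levels beside the epithelial markers, which summed to 8193 and 7018 CPM. The 10 leukocyte and platelet markers had a summed level of 8.57 CPM (untreated) and 36.2 CPM (refractory), with CD3E and GP9 at 0 counts in both, and CD68 alone held 3.62 and 29.2 CPM. Of these 10, 4 were described, and 2 were called higher (CD68 and ITGAM) and 0 lower, beside 9.8% and 11% of all described genes. ITGAM reached 1 CPM in the refractory tumour only. The 6 endothelial markers summed to 2.63 and 0.303 CPM with CDH5 at 0 in both, and the 8 fibroblast markers to 3.02 and 2.12 CPM with COL1A2, COL3A1, DCN and THY1 at 0 in both. Host cells are of the mouse, so these human markers cannot show how many were present. The part of any non-tumour RNA in the differences below was not tested.

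Sequences are shown before the start sites of ITGB5, ITGB6 and ITGB8, the β partners of αv other than β1 counted here. These sequences were picked because ITGB6 and ITGB8 were the 2 genes past the threshold and ITGB5 was not. They come from RefSeq (GRCh38.p14), which gave windows for 8 of the 10 genes. Capitals mark the letters of searched motifs, read on both strands. The SP1 motif was searched as GGGCGG, the SMAD motif as CAGAC, the AP-1 motif as TGANTCA, the TEAD motif as GGAATG and the TATA box as TATAAA. Each run is 5′ to 3′ on the gene's strand, and bases inside a GENCODE 29 exon of the gene were left out.
ITGB5 (chr3:124887366-124887599, minus strand): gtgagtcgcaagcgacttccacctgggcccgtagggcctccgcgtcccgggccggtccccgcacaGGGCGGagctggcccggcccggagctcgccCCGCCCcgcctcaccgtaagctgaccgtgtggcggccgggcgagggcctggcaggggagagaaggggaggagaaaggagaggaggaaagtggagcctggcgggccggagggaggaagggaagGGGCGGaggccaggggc
ITGB6 (chr2:160200314-160200522, minus strand): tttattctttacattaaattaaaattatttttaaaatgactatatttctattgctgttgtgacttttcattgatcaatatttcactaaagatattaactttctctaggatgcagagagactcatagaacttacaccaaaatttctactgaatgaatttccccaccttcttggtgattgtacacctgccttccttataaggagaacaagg
ITGB8 (chr7:20330650-20330701, plus strand): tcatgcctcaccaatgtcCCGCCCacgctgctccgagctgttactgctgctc
The genes that were lower together did not share a base composition. Of the 250 bases before its start, ITGB6 had 30.0% G and C and 0 CpG pairs, a GC share at or above that of only 1.75% of 35116 such windows. ITGB8 had 71.2% and 21 CpG pairs. The ITGB5 window shown, the nearest of 3 to the coding sequence and inside the gene's span, had 75.2% and 23. Its other starts had 52.8% and 56.4%. The median window had 58.0% and 11. The single windows of ITGA2 and ITGA5 had 76.4% and 70.0%. Genes with 2 starts had a window of high and one of low GC share: 78.4% and 41.6% for ITGB1, 70.8% and 40.8% for ITGAV, and 71.6% and 50.8% for ITGA6. The ITGB6 window was the lowest of these. In the full 250-base windows the GGGCGG letters occurred 3 times before ITGB5, 2 times before ITGB8 and 0 times before ITGB6. They are found in 42.6% of all windows. The ITGB8 window held 1 CAGAC, present in 38.0% of windows. Its printed run of 52 bases holds 1 GGGCGG and 0 CAGAC, because exon bases were left out. In these 3 windows the AP-1, TEAD and TATA box letters, held by 6.57%, 11.9% and 10.7% of all windows, were not present. These letter matches are descriptions and not sites.

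**Figure D1:**
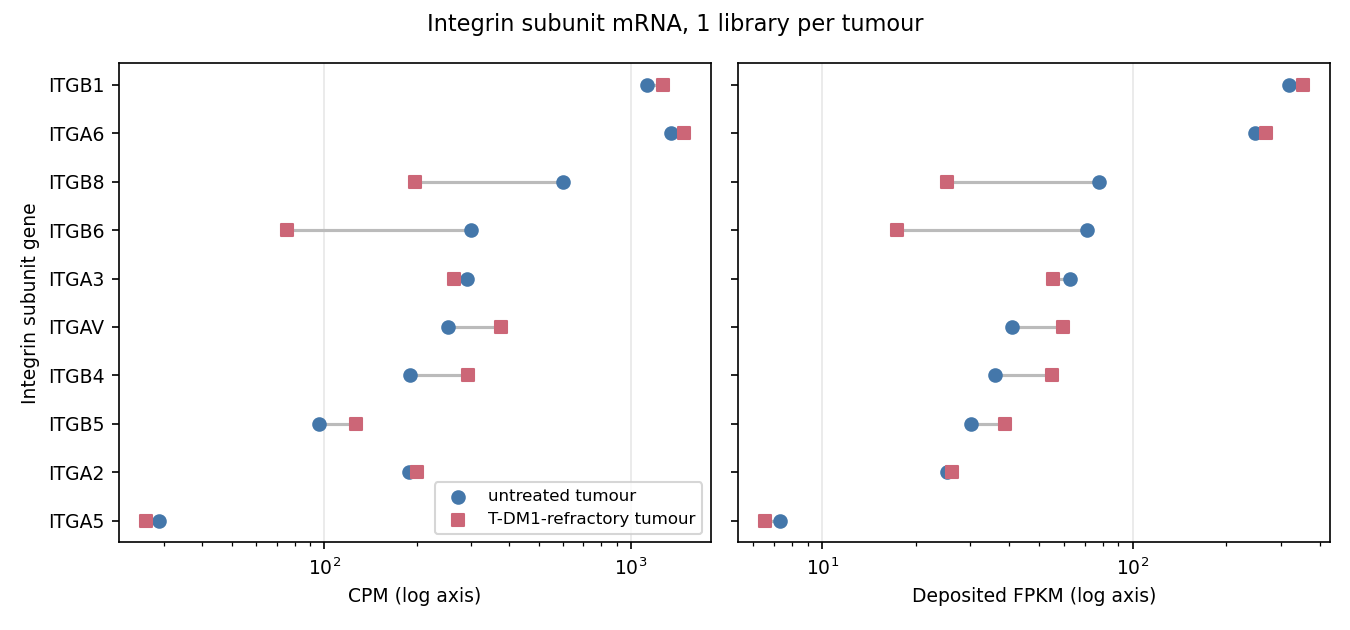
Level of each of the 10 integrin genes in CPM (left) and in deposited FPKM (right), both on log axes; circles are the untreated and squares the T-DM1-refractory tumour, 1 library each. For ITGB8 and ITGB6 the square lies far to the left of the circle, at 25.3 against 78.2 and 17.4 against 71.3 FPKM, while ITGB1 and ITGA6 remain the 2 most abundant.

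ITGB1 and ITGA6, the β1 subunit and a laminin-binding partner of it, were the most abundant integrin mRNAs. Levels of different genes are compared here in the deposited FPKM, which is corrected for gene length. ITGB1 (chr10:32900319-33005792) stood at 318 FPKM in the untreated and 353 FPKM in the refractory tumour, the first of all 26 integrin subunits in both. Its CPM values were 1127 and 1269, a ratio of 1.13 (exact 95% counting interval 1.12 to 1.14). ITGB1 has a processed pseudogene, and the assignment of reads shared with it is not described in the labels.

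ITGA6 (chr2:172427354-172506282), the α chain shared by α6β1 and α6β4, came second at 247 and 269 FPKM. Its 1349 and 1489.6 CPM gave a ratio of 1.10 (95% interval 1.09 to 1.11). ITGA3 (chr17:50055968-50090481), the other laminin receptor chain, stood at 293 and 265 CPM, a ratio of 0.904 (95% interval 0.886 to 0.923). The FPKM of ITGA3 and ITGA6 together was 310 in the untreated and 325 in the refractory tumour, and ITGA6 made up 79.8% and 82.9% of it. Per unit of ITGB1 these laminin-binding chains came to 0.975 and 0.919. Neither ITGA3 nor ITGA6 differed by as much as 1.5-fold.

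ITGA2 (chr5:52989326-53094779), the collagen-binding α2 chain, stood at 189 and 201 CPM, a ratio of 1.06 (95% interval 1.04 to 1.09). ITGA5 (chr12:54395261-54419460), the fibronectin-binding α5 chain, was the least abundant of the 10, at 7.34 and 6.56 FPKM. Its 28.9 and 26.2 CPM gave a ratio of 0.908 (95% interval 0.851 to 0.970). Neither gene came near 2-fold. Each α chain is set against ITGB1 by FPKM because β1 is their shared partner. ITGA6 came to 0.778 and 0.762 per FPKM of ITGB1, ITGA3 to 0.197 and 0.157, ITGA2 to 0.0792 and 0.0744, and ITGA5 to 0.0231 and 0.0186. Summed over ITGA2, ITGA3, ITGA5, ITGA6 and ITGAV, the α chains came to 1.21 per FPKM of ITGB1 in the untreated and 1.18 in the refractory tumour. ITGA6 was 64.5% of that sum in both.

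ITGB4 (chr17:75721328-75757818), which encodes the hemidesmosome subunit, had the highest ratio of the 10. It stood at 190.0 and 295 CPM, a ratio of 1.55 (95% interval 1.52 to 1.59), or 0.63 on the log2(CPM + 1) scale. Its partner ITGA6 was in excess in both tumours, with 6.87 FPKM of ITGA6 per FPKM of ITGB4 in the untreated and 4.90 in the refractory tumour. GALK1, which overlaps ITGB4 on the opposite strand, stood at 0.589 and 2.41 CPM, far below ITGB4.

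Among the 10 genes, the largest differences were those of ITGB6 and ITGB8, which encode partners of αv. ITGAV (chr2:186590065-186680901) had 254 CPM (untreated) and 376 CPM (refractory), a ratio of 1.48 (95% interval 1.45 to 1.51). ITGB5 (chr3:124761948-124901418), whose αvβ5 receptor binds vitronectin, stood at 95.9 and 127 CPM, a ratio of 1.32 (95% interval 1.28 to 1.37). Both were moderately higher in the refractory tumour and below 2-fold.

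ITGB6 (chr2:160099666-160200313) was measured at 302 CPM in the untreated tumour, from 23053 counts. In the refractory tumour it was at 75.5 CPM, from 4479 counts. It was 3.99-fold lower (95% interval 3.87 to 4.12), with a log2 difference of -1.98. ITGB8 (chr7:20330702-20415754) stood at 601 CPM (45914 counts) and 197 CPM (11707 counts). It was 3.04-fold lower (95% interval 2.98 to 3.11), with a log2 difference of -1.60. In the authors' deposited table, which sets 1 library against 1, 0 of the 10 genes had a p-value under 0.05, with 0.0735 for ITGB6 and 0.145 for ITGB8.

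Set against αv, the balance of its β partners other than β1 differed. ITGB1, which pairs with many α chains, stood at 318 and 353 FPKM and was left out of the sum and shares below. In the untreated tumour there was 0.573 FPKM of ITGAV per FPKM of ITGB6, and in the refractory tumour 3.42. For ITGB8 the same ratio was 0.522 and 2.36, and for ITGB5 it was 1.35 and 1.53. The summed FPKM of ITGB5, ITGB6 and ITGB8 was 179.7 untreated and 81.6 refractory, that is 0.454 times as high. ITGB8 was the largest part of that sum in the untreated tumour (43.5%), ahead of ITGB6 (39.7%) and ITGB5 (16.8%). In the refractory tumour ITGB5 was the largest part (47.7%), ahead of ITGB8 (31.0%) and ITGB6 (21.4%). These are shares of mRNA, and receptor protein was not measured.

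**Figure D2:**
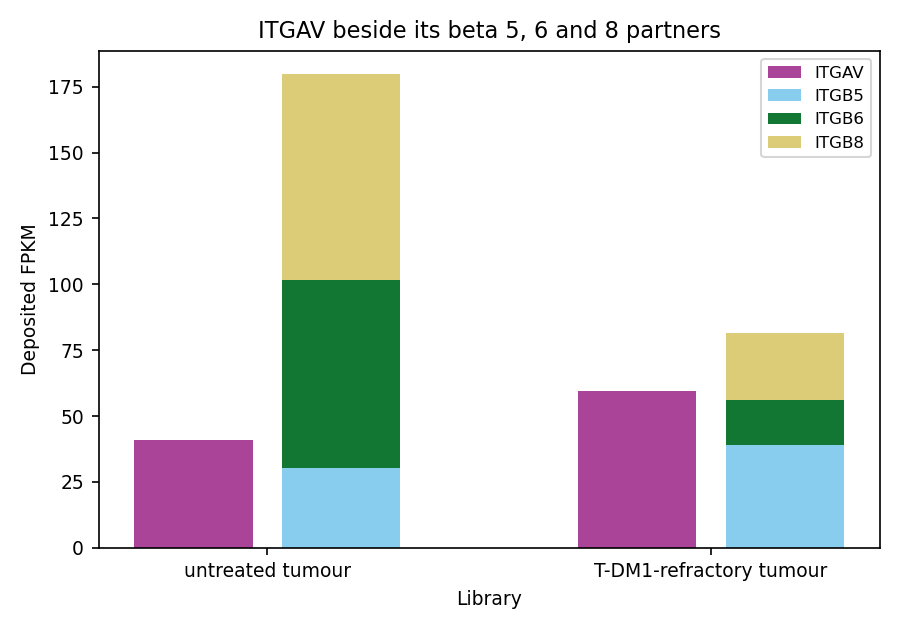
Deposited FPKM of ITGAV (single bars) beside the stacked FPKM of ITGB5, ITGB6 and ITGB8 in the untreated (left) and T-DM1-refractory tumour (right), 1 library each. The stack, which leaves out ITGB1, is 179.7 FPKM high on the left and 81.6 on the right, while the ITGAV bar is 40.8 and 59.6.

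The order of the 10 levels differed between the tumours in its middle. In the untreated tumour ITGB1 and ITGA6 were followed by ITGB8 (78.2 FPKM), ITGB6 (71.3), ITGA3 (62.7), ITGAV (40.8), ITGB4 (36.0), ITGB5 (30.2), ITGA2 (25.2) and ITGA5. In the refractory tumour they were followed by ITGAV (59.6 FPKM), ITGA3 (55.5), ITGB4 (54.9), ITGB5 (38.9), ITGA2 (26.3), ITGB8 (25.3), ITGB6 (17.4) and ITGA5. Only ITGA3 and ITGB4 in the refractory tumour had overlapping counting intervals among neighbours in either order. There is no spread between replicates to set these steps against. Weighed against all 26 integrin subunits, ITGB1 held 32.9% of the summed FPKM in the untreated and 38.7% in the refractory tumour, and ITGA6 held 25.6% and 29.5%. ITGB8 held 8.10% and 2.77%, ITGB6 7.39% and 1.91%, and ITGAV 4.23% and 6.53%. Against all described genes, ITGB6 was at or above 92.5% of them by FPKM in the untreated tumour and 65.2% in the refractory one. For ITGB8 these shares were 93.3% and 74.6%. ITGB1 was at or above 98.8% in both. Even at their lower level ITGB6 and ITGB8 were thus among the better expressed genes of the refractory tumour. The gene length implied by counts and FPKM differed between the libraries by 0.994 to 1.01 times over the 10 genes, so the FPKM and CPM scales gave nearly the same differences.

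The other 16 integrin subunits were compared as the rest of the family, and 7 of them passed 1 CPM. Of these 7, 3 were called at least 2-fold lower, 1 higher and 3 between (57.1% called), with a median log2 difference of -0.84. Among all described genes 20.8% were called, 9.8% as higher and 11% as lower. ITGA1 (chr5:52787896-52959210), the α1 chain that also binds collagen with β1, stood at 144 and 3.67 CPM and was 39.3-fold lower (95% interval 34.4 to 45.2). ITGB7, which pairs with α4 or αE, stood at 26.6 and 2.31 CPM and was 11.5-fold lower (95% interval 9.67 to 13.8). ITGA7, a laminin-binding chain best known from muscle, stood at 7.99 and 3.44 CPM, with a log2 difference of -1.02, close to the threshold, and was not called with 5 CPM added or in FPKM. The median of these few subunits depended on the setting, from -4.01 with a minimum of 10 CPM to -0.06 with no minimum.

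ITGAM, a chain of myeloid cells, was the gene called higher, at 0.419 and 3.32 CPM (ratio 7.93, 95% interval 5.44 to 11.9). ITGAM reached the minimum of 1 CPM in the refractory tumour only. Its usual partner ITGB2 stood at 3.83 and 1.70 CPM, in the other direction. By its ratio ITGB2 was 2.25-fold lower, but it was not called once 1 CPM was added. ITGAM was called neither with 5 CPM added, nor with a minimum of 10 CPM, nor in FPKM. ITGA10 stood at 2.63 and 3.22 CPM and ITGAE at 1.77 and 2.71 CPM. In the authors' deposited table the p-values of the 4 called subunits were 3.96e-05 for ITGA1, 0.00313 for ITGB7, 0.0124 for ITGAM and 0.271 for ITGA7.

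The 2 collagen-binding α chains differed by unequal amounts. ITGA1 and ITGA2 stood at 32.3 and 25.2 FPKM in the untreated tumour, so ITGA1 was 56.2% of their sum. In the refractory tumour they stood at 0.808 and 26.3 FPKM, and ITGA1 was 2.98%. All α partners of β1 counted here, ITGA1 included, summed to 416 and 418 FPKM, so the sum was nearly the same while its makeup differed.

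**Figure D3:**
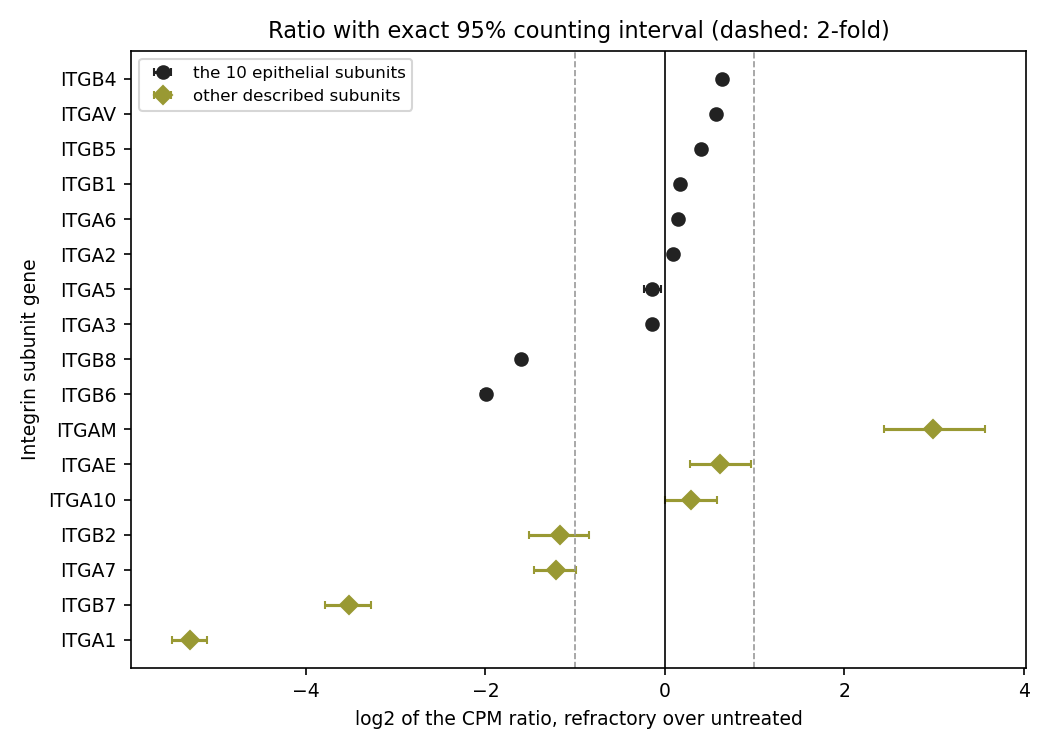
Log2 of the CPM ratio, refractory over untreated, with the exact 95% counting interval, for the 10 epithelial subunits (circles) and the 7 other described subunits (diamonds); dashed lines mark 2-fold. ITGB6 and ITGB8 are the only circles outside the dashed lines, while ITGA1 (39.3-fold lower) lies farthest left of all. ITGB2 lies beyond the dashed line by its ratio, but was not called once 1 CPM was added.

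Each gene was placed among the 10 nearest described genes on either side of it on its chromosome. The stretches that hold these neighbours ran from 0.623 Mb for ITGB4 to 11.9 Mb for ITGA2. Counts of neighbours are to be read beside the 9.8% of all described genes called higher and the 11% called lower. Around ITGB6 the 20 neighbours had a median log2 difference of 0.04, with 1 higher and 4 lower at 2-fold. Of the 20, 1 was lower than ITGB6: the next gene, the phospholipase receptor gene PLA2R1, with 37.8 and 5.28 CPM. RBMS1 on the other side stood at 114 and 137 CPM. Around ITGB8 the median was -0.02, with 2 higher and 3 lower, and 2 of the 20 were lower than ITGB8. MACC1 beside it stood at 273 and 176 CPM, and SP4 at 32.5 and 45.9 CPM. The differences of ITGB6 and ITGB8 were thus not those of the median gene around them.

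For ITGAV the neighbours had a median of -0.26 and for ITGB4 a median of 0.34, against 0.57 and 0.63 of the genes themselves. ITGB5 (0.40) lay close to its neighbours' median of 0.52, where 6 of 20 genes were higher at 2-fold. ITGA2 and ITGA1 lie close together on chromosome 5, with PELO listed between them when genes are ordered by their start position. PELO was not among the genes found to overlap ITGA2, and that order does not tell whether PELO overlaps ITGA1. PELO stood at 36.2 and 22.1 CPM. The neighbours of ITGA2 had a median of -0.49 with 6 of 20 lower, ITGA1 among these 6, while ITGA2 itself was at 0.09. The 2 largest single differences beside a gene of the set were those of NRP1 next to ITGB1 (0.549 and 12.7 CPM) and MUC13 next to ITGB5 (9.08 and 123 CPM). NRP1 encodes neuropilin-1 and MUC13 a membrane mucin. Around ITGA3, 0 of the 20 neighbours passed 2-fold, and around ITGA5 5 were lower and 0 higher, with ITGA3 and ITGA5 at -0.14 and -0.13.

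**Figure D4:**
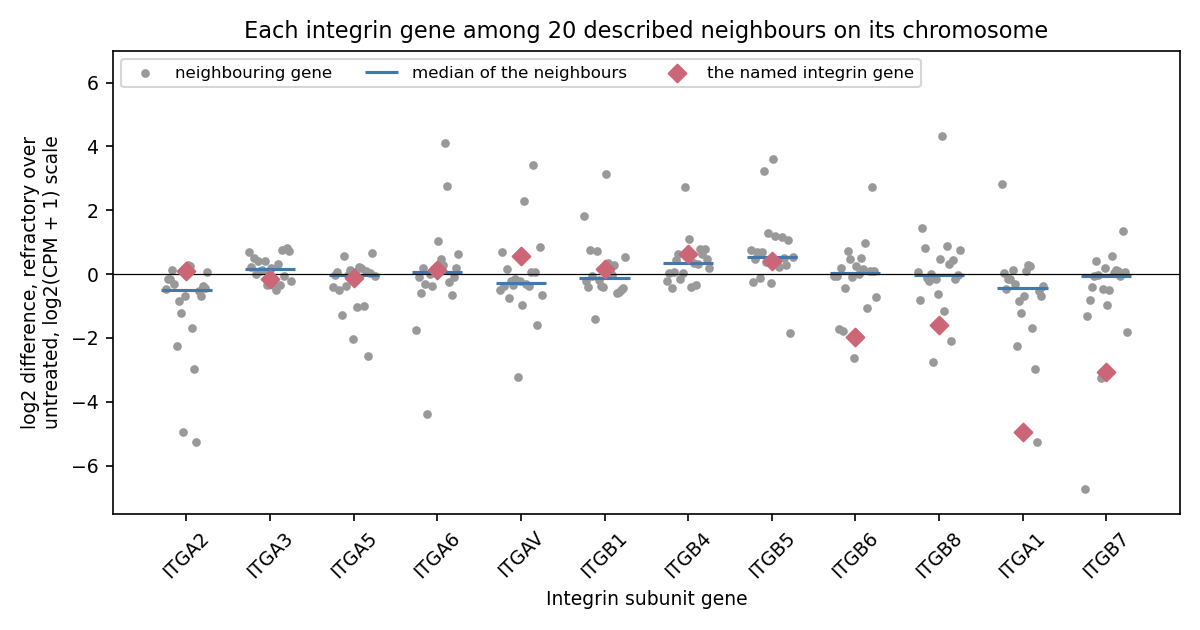
Log2 difference on the log2(CPM + 1) scale of each of the 10 integrin genes, ITGA1 and ITGB7 (diamonds), with its 20 described chromosomal neighbours (dots) and their median (line). ITGB6 and ITGB8 lie near the bottom of their own columns, whose medians are 0.04 and -0.02.

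Lists of genes around the integrins are described by their counts, to be read beside the 9.8% of all described genes called higher and the 11% called lower. No difference between lists was tested. Of 12 laminin chains, 8 were described, 2 were higher and 0 lower, with a median log2 difference of 0.59. LAMB1, the β1 chain of laminin, stood at 20.7 and 124 CPM. LAMA3 (344 and 423 CPM) and LAMB3 (252 and 475 CPM), laminin chains of epithelial basement membranes, stayed below 2-fold. Of 13 collagen chains, 7 were described, 4 were lower and 0 higher (median -1.17, or -1.09 with genes at 0 counts set to a floor of 3 counts). All 4 reached the minimum of 1 CPM in the untreated tumour only. Genes that pass in this way can hardly be called higher, so no direction of the list is read from this count or median. With 5 CPM added, with a minimum of 10 CPM or in FPKM 2 were lower, and the median ran from -0.32 with 5 CPM added to -4.45 with a minimum of 10 CPM. COL4A5, a basement membrane chain, stood at 39.2 CPM and 0 counts, at least 774-fold lower at that floor, and COL5A1 at 10.9 CPM and 0 counts, at least 216-fold lower.

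Among 18 ligands bound through RGD or similar sequences, 13 were described, with 5 higher and 5 lower. The median of -0.85 was -0.43 with 5 CPM added and -0.26 with no minimum. FN1, fibronectin, the ligand of α5β1, stood at 259 and 16.1 CPM, and TGFBI, a matrix adapter that integrins bind, at 543 and 13.6 CPM. CTGF, a matricellular protein, stood at 4.25 and 118 CPM and THBS1, thrombospondin 1, at 31.8 and 179 CPM. The direction therefore split within this class.

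The latent TGF-β list of 8 genes was not limited to forms that αvβ6 and αvβ8 act on. Of these 8 genes, 7 were described, with 3 lower and 1 higher. Their median of -0.33 depended on the setting, at -1.19 in FPKM and -1.60 with a minimum of 10 CPM. TGFB2 stood at 114 and 9.98 CPM and the latent TGF-β binding protein LTBP3 at 85.0 and 22.1 CPM. TGFB1 was the gene called higher, at 4.64 and 13.2 CPM, a call lost with 5 CPM added. TGFB3 stood at 2.51 and 2.09 CPM, between the bounds.

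Of 4 hemidesmosome partners of α6β4, 3 were called higher and 1 lower (median 1.04), but 2 of these 4 calls lay at the threshold. COL17A1, the transmembrane collagen of the hemidesmosome, stood at 21.0 and 453 CPM, a ratio of 21.5 (95% interval 20.5 to 22.7). DST, which encodes the plaque protein BPAG1, stood at 421 and 891 CPM. CD151, a tetraspanin of laminin-binding integrins, stood at 59.0 and 119 CPM, and PLEC, plectin, at 1044 and 519 CPM. CD151 (a ratio of 2.02) and PLEC (2.01-fold lower) were those at the threshold. CD151 was not called under any of the 3 other scalings, with 5 CPM added or in FPKM, which leaves 2 higher, and PLEC was not called with 5 CPM added or in FPKM.

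Inside the cell, 29 of 30 adhesion plaque genes were described, with 7 higher, 3 lower and 19 between (median 0.31). FERMT2, kindlin-2, an activator of integrins, stood at 2.88 and 23.3 CPM. FERMT1, the kindlin of epithelia, stood at 170 and 106 CPM, between the bounds. NEDD9, a scaffold of focal adhesion kinase signalling, stood at 43.6 and 185 CPM. TNS4, a tensin without an actin-binding region, stood at 231 and 90.5 CPM, and TGFB1I1, a paxillin relative, was 3.93-fold lower from 5.90 CPM.

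Of 7 inhibitors of integrin activation, 6 were described and DOK1 (5.51 and 1.31 CPM) was the 1 called, as lower (median -0.23), a call lost with 5 CPM added or a minimum of 10 CPM. Of 13 membrane partners, 2 were higher and 3 lower (median 0.10). TSPAN8, a tetraspanin of gut carcinomas, stood at 32.4 and 417 CPM and PLAUR, the urokinase receptor, at 16.8 and 36.1 CPM, the latter not called with 5 CPM added. EGFR stood at 193 and 61.7 CPM and CAV1, caveolin-1, at 18.6 and 5.51 CPM. Of 14 integrin traffic genes, 13 were described, with 0 higher and 2 lower (median -0.01): CLIC3 (2.37-fold lower, to 11.8 CPM) and DAB2 (9.06 and 3.71 CPM), both known from the sorting of integrins. Of these 2 calls, 1 was left with a minimum of 10 CPM or in FPKM, and 0 with 5 CPM added.

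**Figure D5:**
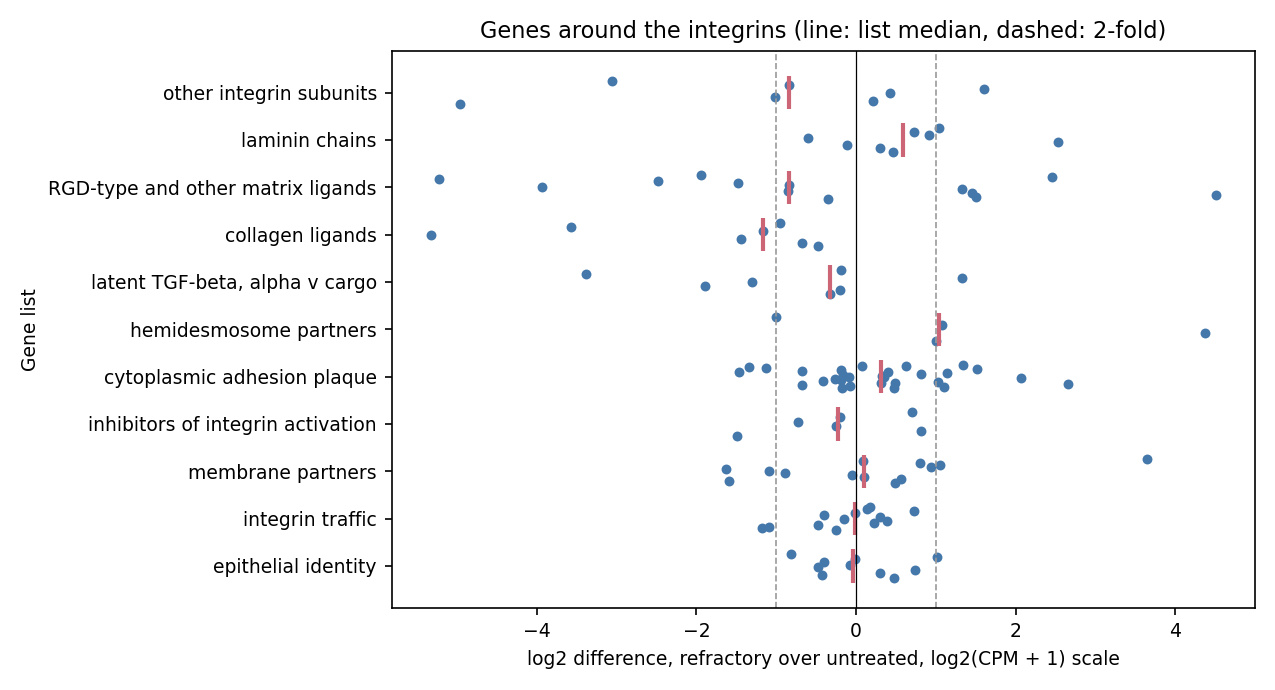
Log2 difference on the log2(CPM + 1) scale of each described gene (dots) in 11 lists of integrin-related genes, with the list median (vertical bar) and 2-fold (dashed lines). The hemidesmosome list has its median at 1.04 and the collagen list at -1.17, while the traffic and epithelial identity lists centre near 0. The collagen genes called lower reached 1 CPM in the untreated tumour only.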

How the data were processed

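Polyadenylated RNA of 2 tumours was measured, 1 library each, grouped by the treatment and title labels. The authors deposited 1 table with expected counts (estimated, not always whole), FPKM, a log2 fold change and a p-value per gene. The submitters' processing notes list edgeR 3.26.8, RSEM 1.2.28, STAR 2.7.0e and bcl2fastq 2.20, with the genome builds GRCh38 and GRCm38. Not given in the sources used here: which annotation served, whether strand was used, and how reads of the mouse host were set apart. Gene length and library size scale the FPKM values, per the file headers. Over 13007 genes with more than 50 counts in each library, the authors' log2 fold change and the log2 ratio of CPM computed here, refractory over untreated, were never more than 0.0207 apart. The deposited p-value has no replicates behind it.

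Expected counts were rounded, TMM factors (1.0097 and 0.9904) came from edgeR 4.0.16 in R 4.3.3, and CPM used the scaled library sizes. Genes reaching 1 CPM in either library were described, and called at 2-fold after adding 1 CPM, which understates the change of low genes. Exact 95% intervals (Clopper-Pearson, given the sum of 2 Poisson counts) cover counting error only, since 1 library per group gives no spread between tumours. No molecular identifiers separate PCR copies, and the intervals do not allow for such copies. The floor for 0 counts was 3 counts. Gene spans are GENCODE 29, GRCh38. Neighbours follow the RefSeq order. The calling steps were tested on simulated data.

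The integrin genes and the lists were chosen with earlier results of these data known. The text names all 10 genes, all other integrin subunits at 1 CPM or more, and from every other list no more than 2 genes per direction, those with the largest change past 2-fold (the most abundant one if there was none). LAMA3, LAMB3, TGFB3, CD151, FERMT1, PELO, GALK1 and the adjacent genes were named after their values were seen. Some genes that the rule names are not reported here. Of the list symbols, 1 was matched by an older name. Alternatives were 3 other scalings (DESeq2 1.42.0 for the median of ratios), pseudocounts of 0.1 and 5, filters of 0 and 10 CPM, FPKM, and thresholds of 1.5-fold and 4-fold.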

Additional observations from a re-analysis of the deposited data

How the results depend on the processing

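No paired analysis was possible because each group has 1 library, and for the same reason no library could be left out. The direction of all 10 integrin genes was the same under 3 other scalings, pseudocounts of 0.1 and 5, and FPKM. ITGB6 and ITGB8 were the 2 lower genes under every alternative except the 4-fold threshold, where 0 were lower, and at 1.5-fold 1 gene, ITGB4, was higher. ITGB6 stood between -2.01 and -1.93, the latter with a pseudocount of 5, and ITGB8 between -1.63 and -1.58. Shifts beyond counting error were small: ITGA6 was at 0.12 with total counts, without the 50 most abundant genes and in FPKM, ITGB1 at 0.14, 0.14 and 0.15, ITGAV at 0.54 in FPKM and ITGB4 at 0.60 in FPKM. Among the other integrin subunits 0 were higher with a pseudocount of 5, a filter of 10 CPM, FPKM or 4-fold. Their median, -0.84, ran from -4.01 with a filter of 10 CPM to -0.06 with no filter, and was -1.13 and -0.40 with pseudocounts of 0.1 and 5 and -1.68 in FPKM. Over all genes, 821 were higher and 840 lower with a pseudocount of 5, 921 were lower with a filter of 10 CPM, 2755 and 2677 at 1.5-fold and 360 and 504 at 4-fold. No scaling moved the median of all genes by over 0.1. Of 260 counts of the other lists under an alternative, 212 stayed within 1.5 times the value given, and 27 of the other 48 were at another threshold. Of 100 list medians, 1 changed sign, that of the integrin traffic list, to 0.06 with a filter of 10 CPM.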
